A study of Mus musculus with 24 samples.

Results

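Open chromatin around the 4 genes of the nuclear factor I family (Nfia, Nfib, Nfic and Nfix) was described from ATAC-seq peak lists of mouse hindlimb muscle. ATAC-seq uses the Tn5 transposase to cut DNA that is not wrapped in nucleosomes, and a peak is a stretch where such cuts pile up. The peaks of 24 libraries were merged into regions, those with a call in 2 or more libraries were kept, and the ones that overlapped a member's RefSeq gene body or the 50 kb on either side of it were taken. This gave 390 of the 459616 kept regions of the genome, of which 174 lay at Nfia, 93 at Nfib, 51 at Nfic and 72 at Nfix. A further 256 merged regions of the 4 loci were called in 1 library each and were not used.

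The libraries came from male mice of the inbred strain FVB/NJ, and the labels name no transgene, deletion or treatment in any group. Soleus and vastus intermedius, which the labels call slow-biased, and gastrocnemius and vastus lateralis, which they call fast-biased, were sampled in 3 adult mice and in 3 litters of the embryonic stage E18.5, making 8 groups of 3 libraries. The study compared muscles that differ in their content of slow-contracting fibres at both stages. The design text places the adults at postnatal day 56, whereas the growth protocol says that adult mice were obtained at 3 to 4 months of age, and the age was not settled here. An E18.5 replicate pooled a muscle from both legs of up to 5 male embryos of 1 litter, and the 4 muscles of a replicate number came from the same animal or litter. Nuclei were prepared from undigested tissue, so all cell types of a muscle could contribute. A list says yes or no for each region and library. It holds no read depth and no amount of signal, and a region without a call was not shown to be closed.

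Nuclear factor I proteins are transcription factors that bind DNA as pairs through a shared domain near their amino terminus, and their preferred site is a palindrome with 2 arms, TTGGC and GCCAA, 5 bases apart. In skeletal muscle the best known member is Nfix, which myoblasts of the foetal wave switch on and which activates foetal muscle genes such as Ckm while it holds back the slow myosin gene Myh7 and other genes of the embryonic wave. Nfia is known for its part in the formation of glia and of brown fat, Nfib for lung maturation and brain development, and Nfic for the growth of tooth roots.

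The sequence around annotated gene starts is printed because calls there differed between the members. RefSeq's promoter table for GRCm38.p6, the assembly of mm10, held 6 starts for 3 of the 4 members, each with 250 bases before and 50 after the start, and 4 of them are printed 5′ to 3′ on the gene's strand. One is the Nfia start at chr4:97581943 on the plus strand (window chr4:97581693-97581992), with its E-boxes in capitals. Another is the Nfic start at chr10:81427173 on the minus strand (window chr10:81427124-81427423), with its GC boxes in capitals. The other two are Nfix starts on the minus strand at chr8:84775828 (window chr8:84775779-84776078), which lay in a region called by every library, and at chr8:84772875 (window chr8:84772826-84773125), with the arms of the nuclear factor I site in capitals.
Nfia start 97581943: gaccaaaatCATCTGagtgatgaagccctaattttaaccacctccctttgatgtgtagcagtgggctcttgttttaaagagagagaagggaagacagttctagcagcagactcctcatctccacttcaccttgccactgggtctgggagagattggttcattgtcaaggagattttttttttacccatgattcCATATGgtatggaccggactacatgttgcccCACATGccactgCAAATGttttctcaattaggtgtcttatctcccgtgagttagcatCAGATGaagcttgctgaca
Nfic start 81427173: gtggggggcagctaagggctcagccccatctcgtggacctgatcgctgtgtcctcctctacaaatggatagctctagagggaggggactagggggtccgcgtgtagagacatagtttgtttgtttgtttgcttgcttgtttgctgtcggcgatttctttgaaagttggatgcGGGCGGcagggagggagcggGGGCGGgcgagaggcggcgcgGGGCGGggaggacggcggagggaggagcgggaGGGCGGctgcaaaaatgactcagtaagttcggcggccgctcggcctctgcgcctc
Nfix start 84775828: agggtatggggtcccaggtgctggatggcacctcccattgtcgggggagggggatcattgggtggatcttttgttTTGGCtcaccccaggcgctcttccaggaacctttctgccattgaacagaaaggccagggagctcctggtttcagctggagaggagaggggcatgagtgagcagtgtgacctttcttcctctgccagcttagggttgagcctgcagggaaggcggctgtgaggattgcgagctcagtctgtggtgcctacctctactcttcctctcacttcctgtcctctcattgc
Nfix start 84772875: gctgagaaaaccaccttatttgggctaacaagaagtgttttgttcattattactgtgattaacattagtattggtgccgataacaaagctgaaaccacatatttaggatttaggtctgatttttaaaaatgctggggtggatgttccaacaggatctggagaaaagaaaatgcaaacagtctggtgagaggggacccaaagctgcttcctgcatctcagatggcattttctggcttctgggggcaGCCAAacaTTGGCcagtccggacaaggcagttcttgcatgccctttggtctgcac

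Calls at these starts ranged from fewer than 2 libraries to all 24. The Nfix start at 84775828 lay in a region of 2911 bp (chr8:84773456-84776366) that all 24 libraries called. The region over the Nfia start (chr4:97581837-97583893) had calls from 4 adult libraries and from 9 at E18.5 (Fisher's exact test, adjusted p = 0.391), and that over the Nfic start (chr10:81426738-81427206) in 3 and 5 (exact adjusted p = 1). Another Nfix start, at 84780082, lay in a region of 821 bp called in 3 adult and 3 E18.5 libraries, and the starts at 84772875 and 84773410 lay in no kept region. The promoter window of the start at 84773410 did overlap the region of 2911 bp that all 24 libraries called. Of 32851 annotated starts of the genome, 66.9% lay in a kept region and 36.6% in a region called by all 24 libraries. At Nfib, the region over the upper end of the gene (chr4:82504152-82507307, 3156 bp) was called by all 24 libraries. So were regions at the upper end of Nfic (chr10:81429511-81431867) and of Nfix (chr8:84800274-84801565), while the region over the lower end of Nfia was called in 3 adult and 1 E18.5 libraries.

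The letters of the 4 windows differed. The Nfia window held 5 E-boxes (CANNTG, the site of basic helix-loop-helix factors such as the myogenic ones, which reads the same on both strands), and 2.1% of all promoter windows of this length held as many or more, whereas 72.3% held at least 1. The Nfic window had 63% G and C against a median of 52.7% over all windows, and held 4 GC boxes (GGGCGG on either strand, the site of Sp factors), a number that 5.49% of windows reach. The Nfix window at 84775828 held 1 arm (TTGGC on either strand), which 46.7% of windows hold. At 84772875 the window held 2 arms around the start, in the order GCCAA and TTGGC with 3 bases between them, which is not the order of the palindrome. The spaced palindrome itself was in none of the 6 windows and in 0.0365% of all windows. These matches are letters in a window and say nothing of binding.

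The lists held 115333 to 228137 peaks, and a library called 93651 to 182435 of the kept regions. The adult lists averaged 130608 ± 15031 peaks in vastus intermedius, 176761 ± 31943 in soleus, 187519 ± 31634 in vastus lateralis and 171485 ± 21898 in gastrocnemius (SD, n = 3), so among slow-biased muscles only vastus intermedius had a lower mean of peaks than both fast-biased ones. In called kept regions both did, with 105463 ± 11774 in vastus intermedius and 129618 ± 19585 in soleus. Vastus lateralis had 140820 ± 12698 and gastrocnemius 133428 ± 13493 (SD, n = 3). The lists' names carry 4 strings that look like dates, whose meaning is not stated, and 0 of them occur in both stages. If they mark batches, batch and stage cannot be told apart. At E18.5, litter 3 gave the lowest counts at Nfia and Nfib in soleus, vastus intermedius and gastrocnemius, and litter 2 in vastus lateralis.

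The loci differed in how dense and how shared their regions were. Kept regions numbered 27.2 per 100 kb at Nfia (a gene of 541 kb), 29.4 at Nfib (217 kb), 37.6 at Nfic (35.7 kb) and 36.6 at Nfix (96.5 kb). A library called on average 8.30 regions per 100 kb at Nfia, 10.7 at Nfib, 17.6 at Nfic and 21.5 at Nfix. All 24 libraries called 9 regions at Nfia, 6 at Nfib, 11 at Nfic and 12 at Nfix, together 9.74% of the 390, where the share of all kept regions was 3.98%. At Nfix an average region was called by 59.3% of the adult and 57.9% of the E18.5 libraries, against 27.7% and 30.2% over all kept regions. At Nfia the averages were 28.4% and 32.8%, close to those of the genome. Neighbours add to these counts: 33 of 51 regions at Nfic and 31 of 72 at Nfix lay within 1 kb of another gene, as the Nfic flanks hold Hmg20b, Fzr1 and Celf5 and the Nfix flanks hold Ier2, Nacc1 and Calr. At Nfia the number was 32 of 174 and at Nfib 12 of 93, all at long non-coding RNA genes.

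**Figure D1:**
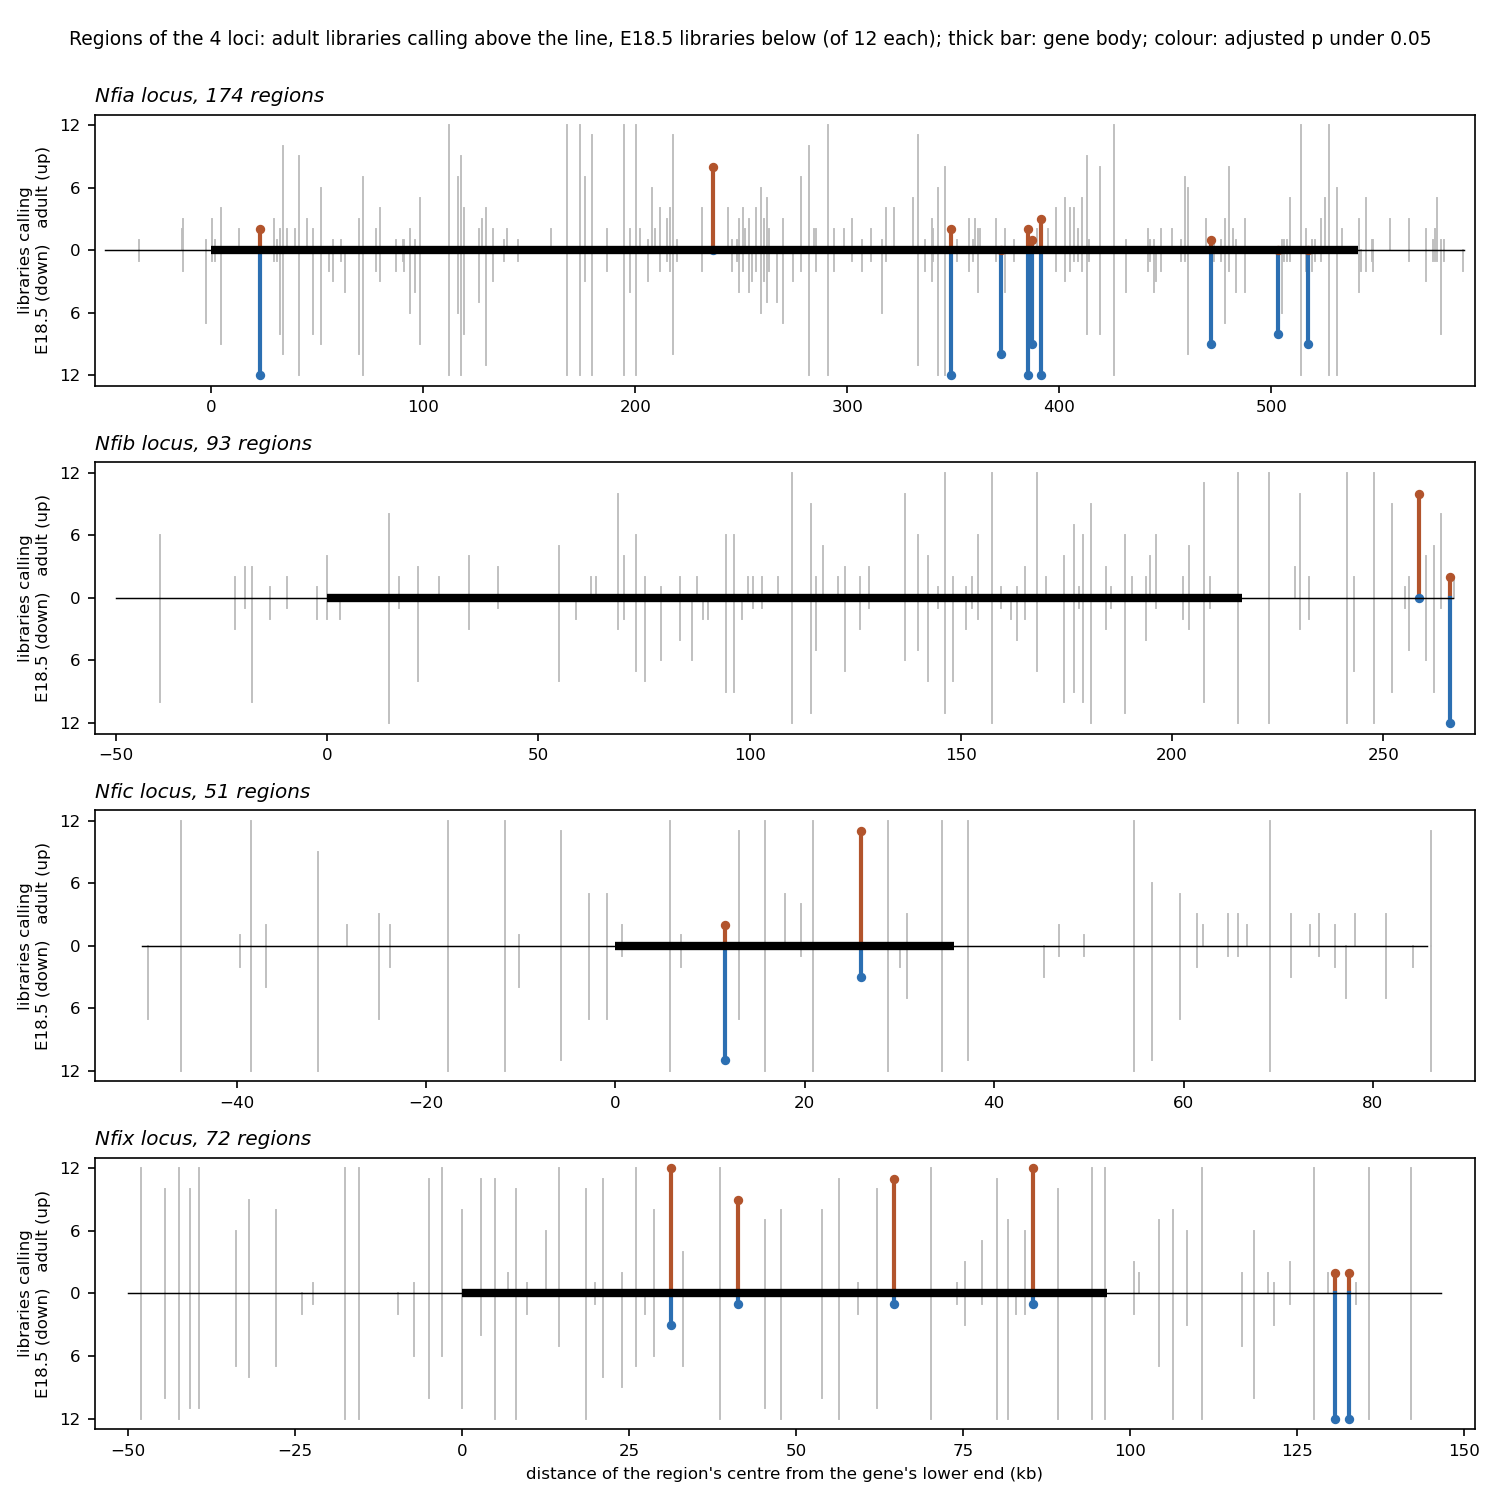
Regions of the 4 loci by distance from the gene's lower end (kb, centre of the region). Bars above the line count the adult libraries that called a region and bars below the line the E18.5 libraries (12 each), the thick bar is the gene body, and coloured bars passed adjusted p 0.05 in Fisher's exact test. The 4 adult-side regions of Nfix lie inside the gene, and 9 E18.5-side regions lie along Nfia.

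Adult and E18.5 libraries were compared region by region with Fisher's exact test (two-sided, 12 against 12 libraries) with Benjamini-Hochberg adjustment over 170267 regions of the genome, and the adjusted p of this exact test is given for each region. Tested were regions called in 5 to 19 libraries, which can reach an unadjusted p under 0.05, and 169 of the 390 were. After adjustment the most uneven splits of 7 or 17 calls had 0.0566, so regions with 7 or fewer or with 17 or more calls could not pass. Of the 169, 7 were called more often in the adult (4.14%, where the share over all regions tested was 1.55%) and 13 more often at E18.5 (7.69%, against 4.55%). At an unadjusted p under 0.05 the numbers were 23 and 32. None of the 390 was called by all 12 libraries of one stage and 0 of the other, which 0.0623% of the tested regions showed for the adult and 0.174% for E18.5. Only 3 animals or litters gave the 12 libraries of each stage, so these p-values are too small. Fewer nuclei of a cell type and less open chromatin per nucleus would both give a missing call, and these cannot be told apart. Without adult 1 the counts were 3 and 7, while the shares of all regions fell as well, to 0.541% and 1.59%. The adult count was 4 without adult 2, litter 2 or litter 3, and the E18.5 count was 8 without litter 1. When the same number of peaks was drawn at random from each list, 0 regions of the 4 loci passed, with 10 adult-side and 20 E18.5-side regions at an unadjusted p under 0.05. Under that draw the genome's calls went to 0.199% and 0.521%.

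Nfix had 4 regions called more often in the adult (12.9%, against 1.55% of all regions) and 2 called more often at E18.5 (6.45%, against 4.55%) among 31 tested. The 4 adult-side regions all lay inside the gene. The clearest, chr8:84789455-84790936 (1482 bp), lay 9.37 kb from the nearest annotated start. It was called in all 12 adult libraries and, at E18.5, in vastus intermedius of litter 3 alone (exact adjusted p = 0.00113). The next, chr8:84768774-84769964 (1191 bp), 2.91 kb from a start, was called in 11 adult libraries, all but soleus of adult 2, and in vastus lateralis of litter 2 (exact adjusted p = 0.00534). The region chr8:84735166-84736705 (1540 bp) was called in all 12 adult libraries and in 3 of E18.5, 1 from each litter (exact adjusted p = 0.0113). The last, chr8:84745349-84746506 (1158 bp), was called in 9 adult libraries, 3 muscles of each animal, and in vastus intermedius of litter 2 (exact adjusted p = 0.0453). In all 4 muscles the adult libraries called 3 or 4 of these regions each, and no E18.5 library called more than 1, a separation that the choice of these regions largely fixes. Both E18.5-side regions lay in the flank. The region at 84745349 lost its call when any 1 animal or litter was left out, that at 84735166 without adult 1 (both kept their direction), and that at 84768774 when a peak had to cover 50% of the region.

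Nfia showed the other balance, with 9 regions called more often at E18.5 and 1 in the adult among 75 tested, all inside the gene. These were 12% on the E18.5 side (4.55% of all regions) and 1.33% on the adult side, near the 1.55% of all regions. Of the 9, chr4:97600322-97602080, chr4:97926645-97927554 and chr4:97962577-97964398 were called in all 12 E18.5 libraries and in 2 adult libraries each (exact adjusted p = 0.00415). The region chr4:97950217-97951226 was called in 10 E18.5 libraries and no adult one (exact adjusted p = 0.00415). The region chr4:98094982-98095572 was called in 9 and 0 (exact adjusted p = 0.0113) and chr4:98079741-98082344, which is 2604 bp long, in 8 and 0 (exact adjusted p = 0.0266). The other 3 were called in 9 to 12 E18.5 and 1 to 3 adult libraries (exact adjusted p = 0.0113 to 0.0453). Over the 9 regions a library of E18.5 called between 5 (vastus lateralis of litter 2) and 9, and an adult library between 0 and 3, so the stages did not overlap, as the choice of these regions fixes. Of them, 4 lay within 20.2 kb (chr4:97950217-97970419), a stretch noticed after the values were seen. The 3 other kept regions of that stretch were called in 1 to 2 adult and 0 to 4 E18.5 libraries. The adult-side region, chr4:97813872-97815237, was called in 8 adult libraries, of which 3 were vastus intermedius, and in no E18.5 library (exact adjusted p = 0.0266). It lost its call without adult 1 or 2 or without any 1 litter. Of the 9 E18.5-side regions, 5 lost theirs without adult 1 and 4 without litter 1.

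**Figure D2:**
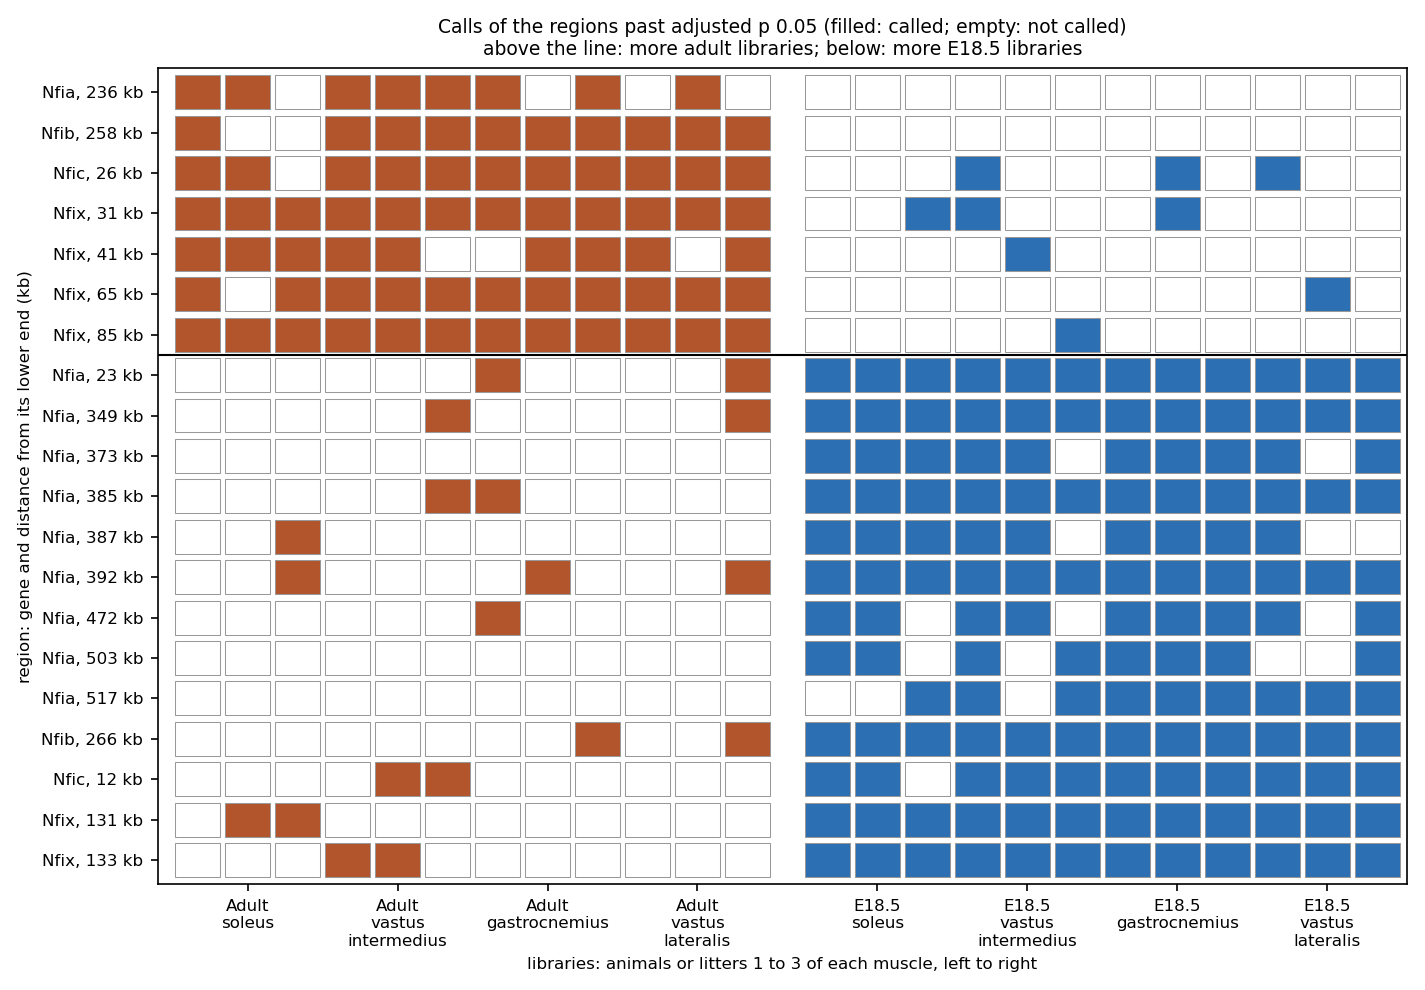
Calls in each of the 24 libraries (columns: 3 animals or litters of each muscle) for the 20 regions past adjusted p 0.05 (rows: gene and distance from its lower end in kb). A filled cell is a call. The upper 7 rows are filled mainly on the adult side and the lower 13 rows mainly on the E18.5 side, in all 4 muscles.

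Nfib and Nfic each had 1 region on either side, of 45 tested at Nfib (2.22%, against 1.55% and 4.55% of all regions) and of 18 at Nfic (5.56%), and these single regions are given as a description. At Nfib, chr4:82547781-82549470, in the flank and at the long non-coding RNA gene Gm11266, was called in 10 adult libraries, all but soleus of adults 2 and 3, and in no E18.5 library (exact adjusted p = 0.00415). A neighbour, chr4:82555356-82556517, was called in all 12 E18.5 libraries and in 2 adult ones, both of adult 3 (exact adjusted p = 0.00415). Both kept their side of the threshold when any 1 animal or litter was left out. None of the 70 regions inside Nfib passed. At Nfic, chr10:81407325-81408185 inside the gene was called in 2 adult libraries, both vastus intermedius, and in 11 E18.5 libraries (exact adjusted p = 0.0168). The region chr10:81421676-81422547, also at Gm51811, was called in 11 adult and 3 E18.5 libraries (exact adjusted p = 0.0453). The first lost its call without adult 1, litter 1 or litter 2 and the other without adult 1, adult 2, litter 2 or litter 3. Just outside the threshold stood chr10:81346518-81347072 at Hmg20b, called in 0 adult and 7 E18.5 libraries (exact adjusted p = 0.0566). So did chr8:84718134-84720283 inside Nfix, called in all 12 adult and 5 E18.5 libraries (exact adjusted p = 0.0566). Further from the threshold, chr4:82553199-82554254 at Nfib was called in 8 adult libraries and 1 of E18.5 (exact adjusted p = 0.10). Other regions of Nfia and Nfix shared that adjusted p. The Nfib region was called in all 6 slow-biased and 2 of 6 fast-biased adult libraries (Fisher's exact test, unadjusted p = 0.0606).

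The rest of the 3 strongest regions per locus and direction did not pass. With an adjusted p of 0.108 in Fisher's exact test stood chr4:97785368-97786072 at Nfia (6 adult and 0 E18.5 libraries), chr8:84728222-84728963 at Nfix (2 and 9) and 4 regions of Nfib. Those at Nfib were chr4:82358611-82359665 inside the gene (10 and 3), chr4:82375948-82376906 inside the gene (0 and 6, of which 4 were litter 1), chr4:82271460-82273271 in the flank (3 and 10) and chr4:82519693-82521340 in the flank at Gm11266 (10 and 3), which tied with the first. At Nfia chr4:98037268-98037690 was called in 7 adult libraries and 1 of E18.5 (Fisher's exact test, adjusted p = 0.190). At Nfic, chr10:81413663-81414430 (5 and 0) and chr10:81472763-81473927 at Celf5 (0 and 5) had an adjusted p of 0.197 in the same exact test. The region chr10:81408693-81409682 at Gm16104 (11 and 7) had 0.534.

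Because the animal is the replicate, the number of muscles in which each animal called a region was also compared. At Nfix, 11 of 31 tested regions were called in more muscles of each of the 3 adults than of each of the 3 litters, and 4 in fewer. The share of all tested regions was 5.12% for more and 11.9% for fewer. At Nfia the numbers were 8 and 16 of 75, at Nfib 3 and 7 of 45 and at Nfic 2 and 3 of 18. All 20 regions past the threshold had this separation, which the choice of these regions largely fixes. For a single region, 3 against 3 cannot give an exact p under 0.1.

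Single muscles were compared in the same way. Regions of one muscle that all 3 adults and 0 litters called numbered 2 of 59 at Nfix in soleus (3.39%, against 0.756% of all regions with a call in that muscle), 3 of 63 in vastus intermedius (4.76% against 0.996%), 2 of 65 in gastrocnemius (3.08% against 1.15%) and 3 of 64 in vastus lateralis (4.69% against 1.67%). The opposite pattern at Nfix, all 3 litters and 0 adults, was as frequent or more so in some muscles, with 3 regions in soleus (5.08% against 2.09%), 1 in vastus intermedius (1.59% against 2.85%), 2 in gastrocnemius (3.08% against 2.9%) and 2 in vastus lateralis (3.13% against 1.59%). At Nfia that second pattern was met in 6 of 126 regions in soleus (4.76%, against 2.09%), 4 of 134 in vastus intermedius (2.99% against 2.85%), 7 of 142 in gastrocnemius (4.93% against 2.9%) and 2 of 135 in vastus lateralis (1.48% against 1.59%). In vastus intermedius and vastus lateralis the Nfia share was thus near that of all regions. Nfib had the same pattern in 3 of 70 regions in soleus (4.29%), 3 of 69 in vastus intermedius (4.35%) and 5 of 80 in gastrocnemius (6.25%). In vastus lateralis it had 0 of 77. The Nfib share was thus above that of Nfia in vastus intermedius and gastrocnemius. Nfic had 1 of 44 in soleus, 0 of 40 in vastus intermedius, 1 of 41 in gastrocnemius and 1 of 42 in vastus lateralis.

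The number of called regions in a whole locus did not separate the stages at any of the 4 loci, where 4.82% of all loci had every adult above every litter and 15.2% every adult below. At Nfix the mean over 4 muscles was 42.25, 43 and 42.75 in the 3 adults and 43, 42.75 and 39.25 in the 3 litters, which overlap (difference adult minus E18.5 of 1, exact permutation p = 0.9). At Nfia the adults had 51, 45.25 and 51.75 and the litters 68.75, 56.5 and 46 (difference -7.75, exact permutation p = 0.4), so the litters spanned a wider range than the adults. At Nfib the difference was -2.58 (exact permutation p = 0.8) and at Nfic -1.42 (exact permutation p = 0.5). For 3 against 3, 0.1 is the smallest p. Set per 100000 called regions of the library, the differences were -1.77, 0.61, 0.50 and 3.23 in the order of the letters (exact permutation p = 0.8, 0.9, 0.7 and 0.2), so the sign changed at Nfib and Nfic.

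**Figure D3:**
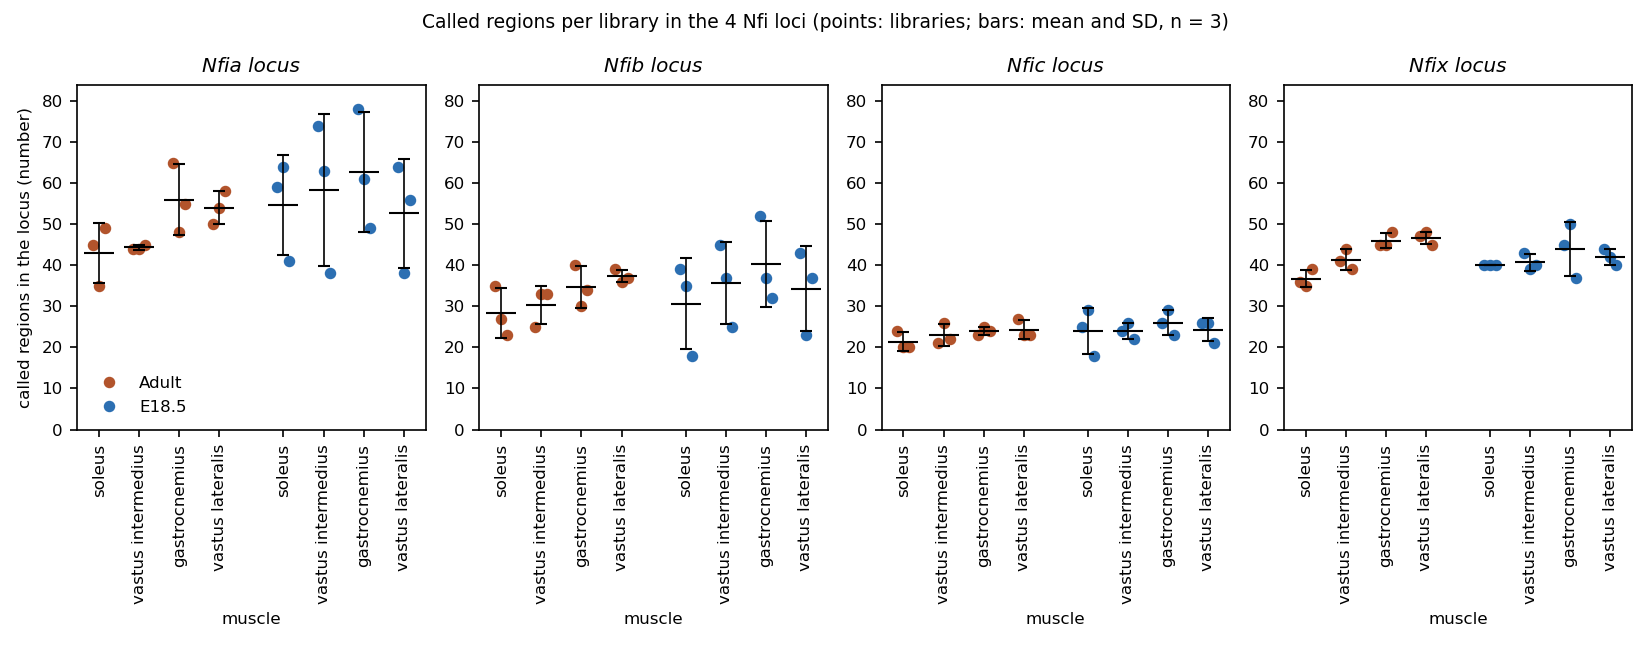
Called regions per library in each locus (number, linear axis from 0), by muscle and stage. Points are libraries and bars are the mean and SD of 3. At Nfix the adult gastrocnemius and vastus lateralis libraries (45 to 48) lie above the adult soleus and vastus intermedius ones (35 to 44).

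Inside Nfix and around it the stages ordered in opposite ways. Within the gene body the adults had means of 23.25, 24.25 and 24.75 called regions and the litters 22.5, 21.75 and 19.5, so every adult was above every litter (24.1 ± 0.764 against 21.2 ± 1.56, SD, n = 3, exact permutation p = 0.1, the smallest possible). Of all gene bodies, 4.9% had this order. In the flanks the adults had 19, 18.75 and 18 and the litters 20.5, 21 and 19.75, so every adult was below every litter (exact permutation p = 0.1), as in 14.8% of all flanks. Both orders together were met at 0.386% of genes. The body counts include the 4 adult-side regions of Nfix described above, and the flank counts its 2 E18.5-side regions. These orders are therefore not separate from the region calls, and the counts without those regions were not made. At the other members, body and flank counts of the stages overlapped.

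Among adult muscles, the slow-biased libraries called on average fewer regions at each of the 4 loci. They also called fewer kept regions of the genome (117540 ± 19594 against 137124 ± 12398, SD, n = 6), with lower means in both slow-biased muscles. By number of peaks, the vastus intermedius lists were short but the soleus ones were not. Every adult had a lower mean in its slow-biased muscles at all 4 loci, as 33.3% of all loci did. At Nfix, the soleus libraries called 36, 35 and 39 regions and the vastus intermedius ones 41, 44 and 39, against 45, 45 and 48 in gastrocnemius and 47, 48 and 45 in vastus lateralis. The lowest, 35, came from soleus of adult 2, whose list of 211875 peaks was the longest but 1 of the adult lists. The 6 slow-biased values all lay below the 6 fast-biased ones (difference -7.33, exact permutation p = 0.00216, the smallest that 6 against 6 can give), as they did at 1.02% of all loci. Adjusted over 34154 gene loci the p was 0.212, and 0 loci of the genome passed, while 13.4% were lower in slow-biased libraries at an unadjusted p under 0.05. At Nfia, soleus had 45, 35 and 49 and vastus intermedius 44, 44 and 45, against 65, 48 and 55 in gastrocnemius and 50, 54 and 58 in vastus lateralis (difference -11.3, exact permutation p = 0.00433, adjusted p = 0.225). At Nfib the difference was -6.67 (exact permutation p = 0.0325, adjusted p = 0.328) and at Nfic -2 (exact permutation p = 0.160, adjusted p = 0.538). Of all loci, 79.8% had a lower mean in slow-biased adult muscle.

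Per 100000 called regions of the library, the adult slow-biased minus fast-biased difference was -2.34 at Nfia, -0.91 at Nfib, 1.62 at Nfic and 0.07 at Nfix, with exact permutation p from 0.331 to 0.978, and 47.1% of all loci were lower in slow-biased muscle. The Nfix value averages 2 slow-biased muscles on opposite sides: per 100000 called regions, soleus had 28.8 ± 4.96 and vastus intermedius 39.4 ± 3.78, while the fast-biased vastus lateralis had 33.3 ± 2.24 and gastrocnemius 34.8 ± 4.68 (SD, n = 3). The difference between the muscles was not tested. Within animals, the Nfix difference was -7.5, -7 and -7.5 regions in adults 1, 2 and 3, while the scaled differences were 5.02, -1.60 and -3.20. The lists of adult 1 carry such a string of their own, taken here only as a name, and its scaled difference had the opposite sign to that of adults 2 and 3 at Nfix and at Nfia (1.98, -4.70 and -4.29). At Nfib (0.57, 0.32 and -3.63) and Nfic (4.04, 1.23 and -0.41) it was adult 3 whose sign was opposite to the others.

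**Figure D4:**
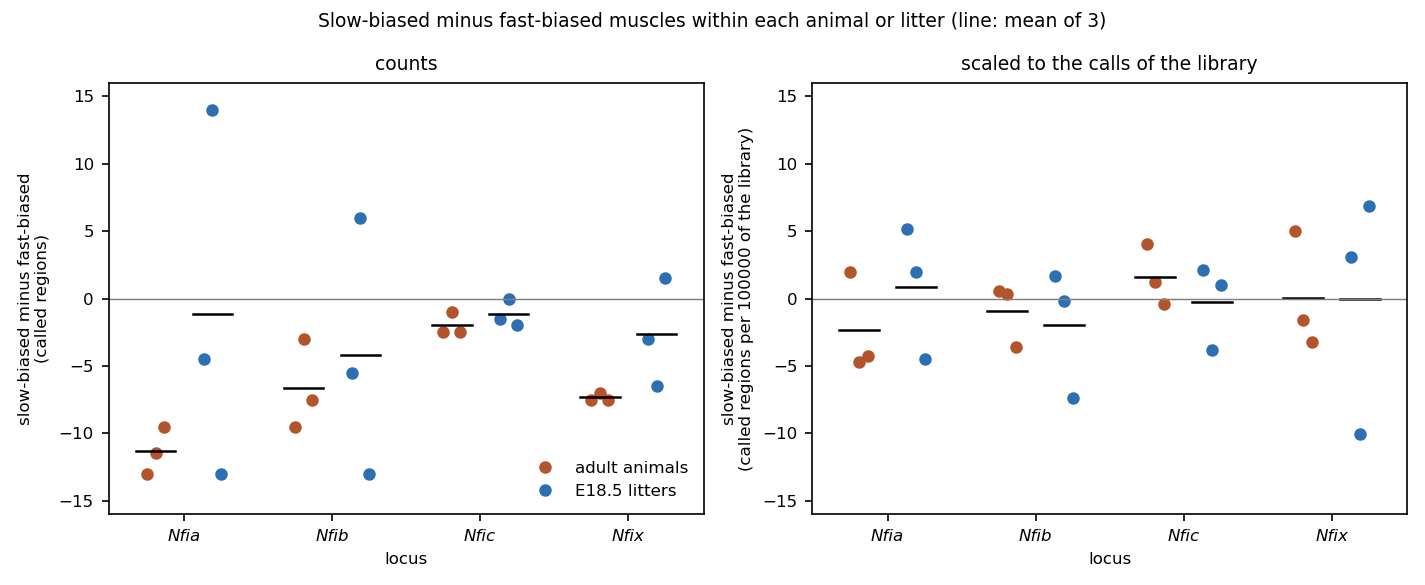
Slow-biased minus fast-biased muscles within each adult animal or E18.5 litter, as called regions of the locus (left) and per 100000 called regions of the library (right). Points are animals or litters and lines are means of 3. All 12 adult points lie below 0 on the left and spread to both sides of 0 on the right.

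At E18.5 slow-biased and fast-biased libraries overlapped at every locus. The differences were -1.17 at Nfia, -4.17 at Nfib, -1.17 at Nfic and -2.67 at Nfix (exact permutation p = 0.885, 0.511, 0.608 and 0.234), and 0.773% of all loci were lower in slow-biased libraries at an unadjusted p under 0.05. The slow-biased minus fast-biased difference was set per animal between 3 adults and 3 litters, and at Nfix the adults had -7.5, -7 and -7.5 and the litters -3, -6.5 and 1.5, so the groups did not overlap (difference -4.67, exact permutation p = 0.1, the smallest possible). After scaling that difference was 0.11 (exact permutation p = 1). The share of all loci whose unscaled differences do not overlap between the stages was not counted. At the other loci the exact permutation p was 0.4, 0.8 and 0.5. By region, 0 regions of the 4 loci differed between slow-biased and fast-biased muscles after adjustment in either stage (Fisher's exact test, 48 tested in the adult and 41 at E18.5), as did 0 regions of the genome. At an unadjusted p under 0.05 there was 1, chr10:81392468-81394364 at Nfic, called in 0 slow-biased and 5 fast-biased adult libraries (Fisher's exact test, unadjusted p = 0.0152) and named after its values were seen. Of all tested regions, 2.88% were more frequent in fast-biased and 0.472% in slow-biased adult libraries at that level, and 0.591% and 0.234% at E18.5.

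Genes that act with Nfix in muscle were described in the same way from 2 lists, with loci of the same 50 kb flanks. The partners (Prkcq, Mef2a, Mef2c, Sox6, Nfatc4 and Ski) had 7 adult-side and 5 E18.5-side regions of 127 tested. The linked muscle genes (Ckm, Eno3, Myh7, Mstn and Myh3) had 3 and 2 of 81. The background shares are those given above, 1.55% and 4.55%. Sox6, a repressor of slow-fibre genes, had 3 adult-side regions and none on the E18.5 side. Its locus held 36.75, 40.25 and 38.75 called regions in the adults and 30, 23.25 and 19.5 in the litters, which do not overlap, an order that 4.82% of all loci had. Mef2c, a muscle transcription factor, had 2 adult-side regions, and its adults had 18, 12.5 and 16.5 called regions against 11.75, 8.5 and 6.25 in the litters. Of the 6 partners, 3 had a higher mean in the adult and 3 a lower one. Ski had 2 E18.5-side regions and none on the adult side. Its adults had 24.75 to 25.75 called regions and its litters 26.75 to 29.5. Nfatc4 had 1 E18.5-side region, with 13.75 to 14.75 called regions in the adults and 16.5 to 18.75 in the litters. At both, every adult was below every litter, as at 15.2% of all loci. Pax7, the satellite cell factor that activates Nfix in foetal myoblasts, had 2 E18.5-side regions and 28 to 30.5 called regions in the adults against 30.25 to 38 in the litters, which overlap. Myh7, the slow myosin gene, had 1 E18.5-side region of 28 tested, and Ckm, the muscle creatine kinase, had none of 20 in either direction.

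Of the cell type marker lists (loci with 10 kb flanks), the myonuclear one separated the stages, and the ranges of the others given here overlapped. The myonuclear list had 53 adult-side and 3 E18.5-side regions of 177 tested, where the shares of all tested regions were 1.55% and 4.55%. Of the adult-side ones, 33 lay at Ttn, 10 at Neb and 5 at Myh4, while Acta1, Ckm and Mylpf had none. Among the list's 8 genes, 6 had a higher mean in the adult. The 2 with a lower one were Acta1 (2.92 against 3 called regions) and Ckm (5.42 against 6.33). Over this list, libraries called 97 to 186 regions in the adult and 32 to 73 at E18.5. No share of all features was counted for such ranges. The satellite cell list had 0 and 4 of 49, with 20 to 38 called regions in the adult and 29 to 49 at E18.5. The immune list had no region past the threshold of 33 tested (14 to 28 called regions in the adult and 18 to 38 at E18.5), and the fibroblast list had 3 and 0 of 64 (47 to 64 and 44 to 70). For endothelium the summed counts were 68 to 83 and 43 to 103, for smooth muscle and pericytes 30 to 51 and 34 to 64, for tendon 12 to 23 and 14 to 30, for cartilage and bone 24 to 65 and 32 to 79 and for adipocytes 13 to 26 and 14 to 23. Every marker gene of these lists had a call in some library. In the adult the myonuclear list had 97 to 144 called regions in slow-biased and 152 to 186 in fast-biased libraries. Of all loci (50 kb flanks), 79.8% had a lower mean in slow-biased adult muscle. The part of cell make-up in the differences at the Nfi loci was not tested.

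The genes whose counts followed each member most closely over the 24 libraries, per 100000 called regions of the library, are given as a description. For Nfix they were Pitpna (Pearson r = 0.906), Gse1 (0.905) and Morn1 (0.903), of 18605 protein-coding genes compared. For Nfia they were Sync (0.838), Rbbp4 (0.797) and Grb2 (0.775), for Nfib Cacna1f (0.805), Arhgap26 (0.798) and Syp (0.786), and for Nfic Hoxa4 (0.860) and Hoxa5 and Hoxa6 (0.852 each, since their loci hold the same regions). The points share their list length and stage, and the loci of Sync and Rbbp4 overlap, as do those of Cacna1f and Syp.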

How the data were processed

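Open chromatin was profiled by ATAC-seq, and the authors deposited 1 peak list per library, with chromosome, start and end on mm10, and nothing else, so the values are positions. Each library has a list of its own. The submitters' processing notes name MACS2 2.1.1, bedtools 2.25.0, Bowtie2 2.4.4, Picard, Trimmomatic 0.39.0, FastQC 0.11.5 and SAMtools 1.14.0, with no roles. Not given in the sources are the threshold for a peak, any shift for Tn5 and the number of reads, so list length was the only measure of depth.

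Peaks of the 24 lists were merged by the rule of bedtools merge into 930761 regions, and 459616 called in at least 2 libraries (1 bp of overlap) were kept. Genes came from RefSeq (GRCm38.p6, no strand or exons), promoter windows from RefSeq's promoter table. Regions were compared with Fisher's exact test and locus counts with exact permutation tests, both two-sided with Benjamini-Hochberg adjustment and a threshold of 0.05, in Python 3.11.15, NumPy 2.4.6, SciPy 1.17.1 and pandas 2.3.3, and figures were drawn with matplotlib 3.10.9. The code was tested on simulated calls.

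Named were the 4 members, their regions past the threshold or called by all libraries of a side and none of the other, those over annotated starts, up to 3 regions per locus and direction with the smallest p, and the 3 genes most correlated with each member. Members, gene lists, tests and markers were chosen with earlier results of these data known. The 4 muscles of a replicate come from 1 animal or litter, per the labels' protocols. Deviations of locus counts from the group mean correlated between muscles of the same animal with a mean r of 0.0765 in the adult (others -0.0380) and 0.209 at E18.5 (others -0.106).

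Alternatives were equal list lengths, a call covering 50% of the region, at least 3 libraries, no flanks or 10 kb flanks, no regions at other genes, each animal or litter left out, scaling to the calls of the library, and the animal as a block. Equal numbers of first peaks in file order were added after seeing the data, because peak width falls along the lists. The study's RNA-seq was not analysed here, and 1 list of related genes, 1 list of markers and 2 single regions are not reported here.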

Additional observations from a re-analysis of the deposited data

Results flagged for a closer look

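Of 16 groups of 6 libraries (4 loci, 2 stages, slow-biased or fast-biased muscles), 2 held a library far from the rest by Dixon's gap measure, of which chance gives about 1 in 20. At Nfia, the adult slow-biased libraries called 44 to 49 regions except soleus of adult 2, which called 35. At Nfix, the E18.5 slow-biased libraries called 39 or 40 regions except vastus intermedius of litter 1, which called 43. Both libraries stayed in every comparison.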

How the results depend on the processing

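The replicate block, that is, permuting muscles within animals or litters, changed no call: the adult slow-biased minus fast-biased difference, -11.3 at Nfia, -6.67 at Nfib, -2 at Nfic and -7.33 at Nfix, had an unadjusted exact permutation p of 0.00926 at Nfia and Nfix (the smallest possible), 0.0278 at Nfib and 0.185 at Nfic, with adjusted p of 0.276 to 0.551. At E18.5 the differences were -1.17, -4.17, -1.17 and -2.67, with adjusted p of 1, and 0 regions passed in either stage. With 0.00926 as the smallest exact p of the blocked tests, adjustment over all loci or regions left little room for any call. No paired analysis was possible for adult against E18.5 because each animal or litter has 1 stage.

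Without single animals or litters, the regions called more often ranged from 3 to 6 in the adult and from 7 to 14 at E18.5. Of the 20 regions, 17 held their call with the first peaks of each list, as many as the shortest holds (10 and 16 regions in all, against 3.48% and 9.43% of all regions). With 1 in 2 of that number the counts were 12 and 21 of 78 regions tested, while the shares of all regions rose to 10.7% and 21.9%. With the same number of peaks drawn at random they were 0 and 0, and the cause was not tested. With a call covering 50% of the region the counts were 4 and 15 (3.17% and 13.3% of all regions), and 8 of the 20 regions could not be tested.

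Locus differences in adult against E18.5 changed sign at Nfib without litter 1 (2.42) and after scaling (0.613), at Nfic with equal numbers of drawn peaks (0.5), in the gene body alone (0.583), without litter 2 (0.125) and after scaling (0.501), and at Nfix without litter 3 (-0.167). Their ranges without single animals or litters were -13.6 to -2.17 at Nfia, -6 to 2.42 at Nfib, -2.96 to 0.125 at Nfic and -0.167 to 2.04 at Nfix. The adult slow-biased minus fast-biased difference changed sign at Nfic and Nfix, with equal numbers of drawn peaks (1 and 0.333) and after scaling (1.62 and 0.0725). At E18.5 it did so at Nfia with equal numbers of drawn peaks (0.667), after scaling (0.874) and without litter 1 (0.5) or litter 3 (range -8.25 to 5), at Nfib without litter 3 (range -9 to 0.5) and at Nfix with equal numbers of drawn peaks (0.667). The difference between the stages in this contrast changed sign at Nfia with the first peaks at 1 in 2 of the shortest list (2.83). At Nfib it did so with equal numbers of drawn peaks (1.67), after scaling (1.04), with the first peaks (1.17 and 1) and without litter 2 (range -6.83 to 2.67). At Nfic it did so with equal numbers of drawn peaks (1), a 50% cover (1.5), at least 3 libraries (0.167), scaling (1.86) and without litter 2 (range -1.25 to 0.25), and at Nfix after scaling (0.107). None of these reversed values had passed the threshold, and the cause was not tested.

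A list without scores cannot separate a weak peak from none, so depth limits every missing call.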
